A study of Homo sapiens with 6 samples.

Results

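The genes described here encode RNA-binding proteins of the ELAVL, NOVA, CELF and RBFOX families: ELAVL1, ELAVL2, ELAVL3, ELAVL4, NOVA1, NOVA2, CELF3, CELF4, CELF5 and RBFOX2. They were taken by gene symbol from a table of counts per gene, in which these 10 genes stand among 58735. RNA-Seq of H1155 cells was compared between 3 libraries labelled WT and 3 labelled GFI1-KO. H1155 is a human lung cancer line whose labelled type is large cell neuroendocrine lung cancer, and all the cells were untreated and grown in DMEM with fetal bovine serum. The GFI1-KO cells came from transfection with CRISPR/Cas9 plasmids whose guides matched regions of the GFI1 promoter, followed by sorting of single GFP+ clones. How many clones the GFI1-KO libraries stand for is not stated in the sources used here, so a trait of a clone and an effect of the edit cannot be told apart. Nothing in the labels says that the libraries of a group came from separate cultures, and standard errors and adjusted p values measure the spread between these libraries, which may be technical. The 10 genes were proposed with the GFI1-KO and WT differences of these same libraries known. Their levels and fold changes are therefore a description, given with a standard error (SE) and without a p value.

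ELAVL proteins, also called Hu proteins, bind AU-rich and U-rich stretches of mRNA and are known for stabilizing messages and for promoting their translation. ELAVL1 (HuR) is made in most cell types, whereas ELAVL2 (HuB), ELAVL3 (HuC) and ELAVL4 (HuD) are known from neurons and from neuroendocrine tumors, in which they are the antigens of anti-Hu antibodies. NOVA1 and NOVA2 direct alternative splicing in neurons, CELF3, CELF4 and CELF5 are the brain-enriched branch of the CELF family of splicing and translation regulators, and RBFOX2 is the broadly expressed RBFOX splicing factor.

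Totals lay between 14882914 and 16102215 counts in the WT libraries and between 17503794 and 17692882 in the libraries labelled GFI1-KO. Pearson's r of log2 CPM across the 17514 genes tested was 0.991 to 0.993 within groups and 0.937 to 0.942 between them. GFI1, the edited gene, did not lose its mRNA under the GFI1-KO label. Its counts were 153, 106 and 125 in WT and 174, 188 and 170 in GFI1-KO. The log2 difference of 0.31 passed (edgeR quasi-likelihood test, Benjamini–Hochberg adjusted p = 0.0273) but not without WT 2 (adjusted p = 0.147), WT 3 (0.0633) or GFI1-KO 2 (0.0927). The GFI1 count does not separate the groups as the labels would, and every direction below rests on the labels alone. The 8 neuroendocrine markers examined summed to 1704–1732 CPM in WT and 2877–2975 CPM in GFI1-KO, so the labelled cell type had its markers in all 6 libraries. Across tested genes, the log2 fold change followed the GC content of the transcript (Spearman rho = 0.574, with genes that are not independent replicates). For this reason the fold changes of the 10 genes are also given with offsets for GC content and gene length. For other named genes this is done where the offsets change the log2 value itself by over 1.5 times. The part of GC content in a difference was not tested beyond that.

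All 10 genes passed the filter on low counts, ELAVL4 through its WT libraries. ELAVL4 was nearly absent from the libraries labelled GFI1-KO. NOVA1, NOVA2, ELAVL1, ELAVL3 and CELF5 were lower with and without GC and length offsets, and without them NOVA1 and NOVA2 shared the same log2 fold change. CELF4 was higher, CELF3 was higher by a small amount that nearly vanished with GC and length offsets, and ELAVL2 was lower without these offsets but higher with them. RBFOX2 had overlapping groups. At an adjusted p of at most 0.05 in edgeR without offsets, 2 of the 10 were called higher and 7 lower. In that fit 36.5% of all tested genes were called higher and 35.9% lower. With GC and length offsets, 3 of the 10 were called higher and 6 lower, beside 5703 higher and 4940 lower of all 17514 tested genes. These backgrounds also apply to the list counts below. For 9 of the 10 genes the ranges of normalized counts in WT and GFI1-KO were separate, as they were for 74.4% of tested genes. Because the genes were chosen on this contrast, nothing is read from these shares. The median log2 fold change was -0.40 over the 10 genes and 0.00050 over all tested genes.

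**Figure D1:**
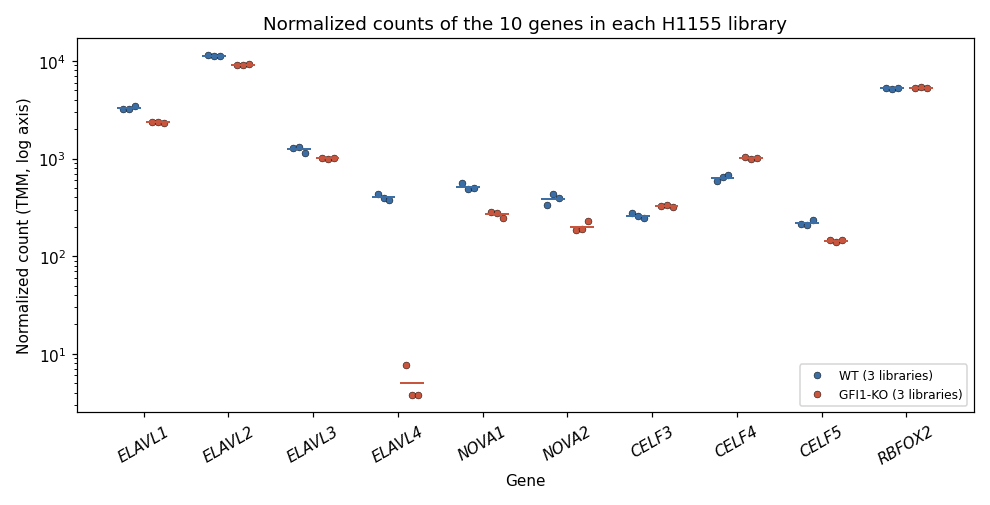
Normalized counts (TMM-scaled, log axis) of the 10 genes, 1 point per library, with WT in blue, GFI1-KO in red and the group means as lines. The ELAVL4 points lie at 373–437 in WT and at 3.76–7.62 in GFI1-KO, whereas the RBFOX2 points of both groups overlap.

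ELAVL4 encodes HuD, which is known for stabilizing mRNAs such as GAP43 during neurite outgrowth. The gene lies on chromosome 1 from 50048014 to 50203786 (GRCh38, plus strand, 7 exons in the canonical GENCODE transcript). Normalized counts, that is counts scaled by TMM to a common library size, were 437, 396 and 373 in the WT libraries and 7.62, 3.79 and 3.76 in the libraries labelled GFI1-KO. The lowest WT value stood far above the highest GFI1-KO value. The raw counts were 427, 358 and 355 against 8, 4 and 4, and the last of these have exact Poisson 95% intervals of 1.09–10.2, which cover counting error only. No library was below the floor of 3 counts. Summed over libraries, 1140 WT counts stood against 16, a level 79.7-fold lower in GFI1-KO with a counting interval of 48.8 to 140. The fitted log2 fold change was -5.71 with GC and length offsets and -6.28 (SE 0.19) without them, the latter being the 41st lowest of 17514 tested genes and the 34th lowest of 13949 protein-coding ones. In a bulk sample, fewer cells that express ELAVL4 and less ELAVL4 RNA per cell cannot be told apart. No 50-base word of its transcripts occurs in another gene, and the pseudogene and antisense gene that overlap it had at most 4 counts in any library.

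The table of RefSeq promoters (GRCh38.p14, 250 bases before to 50 after each annotated start) held 20 windows for 7 of the 10 genes and was searched for AATC on both strands (GATT on the other), the core that the GFI1 zinc fingers are known to bind. A match occurred in 14 of the 20 windows and in 69.0% of all 35116 windows, and each of the 7 ELAVL4 windows held at least 1. On either strand, the E-box CAGCTG was present in 5 of 20 windows and 17.9% of all, GGACAG, a piece of the REST element, in 4 and 20.5%, and the TATA box TATAAA in 2 and 11.5%. Windows are printed 5′ to 3′ for 4 genes, those with the lowest log2 values, ELAVL4, NOVA1 and NOVA2, and that with the highest, CELF4, which were chosen after their values were seen. They are ELAVL4 chr1:50047805-50048104 (plus strand), NOVA1 chr14:26597984-26598283, NOVA2 chr19:45973816-45974115 and CELF4 chr18:37485743-37486042 (all minus strand), with capitals for AATC or GATT.
ELAVL4: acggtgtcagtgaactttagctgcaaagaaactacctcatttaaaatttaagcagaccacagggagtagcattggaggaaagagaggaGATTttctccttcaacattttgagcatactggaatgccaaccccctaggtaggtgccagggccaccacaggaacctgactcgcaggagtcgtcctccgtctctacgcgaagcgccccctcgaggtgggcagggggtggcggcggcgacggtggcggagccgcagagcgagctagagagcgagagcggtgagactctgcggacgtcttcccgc
NOVA1: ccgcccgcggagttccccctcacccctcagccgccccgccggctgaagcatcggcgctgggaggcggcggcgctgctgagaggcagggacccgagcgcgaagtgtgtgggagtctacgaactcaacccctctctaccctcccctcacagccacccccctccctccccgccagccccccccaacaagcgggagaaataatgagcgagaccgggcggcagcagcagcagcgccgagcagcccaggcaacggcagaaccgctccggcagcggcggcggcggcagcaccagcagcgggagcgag
NOVA2: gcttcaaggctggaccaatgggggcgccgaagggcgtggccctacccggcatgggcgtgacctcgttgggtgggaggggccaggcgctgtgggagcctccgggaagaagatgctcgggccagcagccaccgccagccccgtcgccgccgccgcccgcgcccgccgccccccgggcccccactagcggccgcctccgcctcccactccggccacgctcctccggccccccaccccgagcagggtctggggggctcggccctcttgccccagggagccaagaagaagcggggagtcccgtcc
CELF4: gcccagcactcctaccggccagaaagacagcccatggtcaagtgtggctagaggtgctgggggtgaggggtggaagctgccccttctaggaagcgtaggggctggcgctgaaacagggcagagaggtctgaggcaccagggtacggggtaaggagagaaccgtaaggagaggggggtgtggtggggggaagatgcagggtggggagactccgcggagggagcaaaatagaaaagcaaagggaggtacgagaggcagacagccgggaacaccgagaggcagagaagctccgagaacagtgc
Where a gene has several windows, the one at its outermost start is printed. The single ELAVL4 match in it begins at position -162 from the start, and the other windows printed hold none. The windows not printed hold 1 to 4 matches for ELAVL4 and 2 or 4 for NOVA1, so the printed ones give no contrast between these genes. GC content was 57.7% in the ELAVL4 window, 72.7% in that of NOVA1, 76.7% in that of NOVA2 and 61.7% in that of CELF4, which lies inside the deposited gene. The ELAVL4 windows not printed had 37.0% to 47.0% GC, and the share of matches over all windows was not matched for GC content. Counts per gene do not show which start is used, and a match is a stretch of letters, not a site of binding.

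The genes on either side of ELAVL4 differed by less than ELAVL4 did. AGBL4, on the side of lower coordinates, had 16.2 ± 0.447 normalized counts in WT and 16.1 ± 4.02 in GFI1-KO (SD, n = 3 libraries each), a log2 fold change of -0.01 (edgeR adjusted p = 0.976) that was 0.10 with GC and length offsets (adjusted p = 0.818). BEND5, the next on that side, stood at 23.7 and 17.1 (log2 fold change -0.47, edgeR adjusted p = 0.195, and with offsets -0.74, adjusted p = 0.0495). FAF1, 233242 bases away on the other side, fell by 0.53 on the log2 scale (edgeR adjusted p = 2.0e-11) and by 0.32 with offsets. CDKN2C, a cell cycle inhibitor gene beyond it, rose by 0.86 (edgeR adjusted p = 5.7e-17) and by 0.34 with offsets.

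The 5 protein-coding genes whose pattern over the 6 libraries was most like that of ELAVL4 were found by the root mean square difference of log2 CPM (prior count 2) centered on the WT mean. PARVA, which encodes the adhesion protein α-parvin, was nearest at 0.192, followed by ERICH3 at 0.257, the cadherin gene CDH10 at 0.299, CLVS2 at 0.320 and the cationic amino acid transporter gene SLC7A3 at 0.329. CLVS2 had 1231 counts over the WT libraries and 18 over those labelled GFI1-KO, 76.5-fold lower with a counting interval of 48.2 to 129. PARVA had 417 and 2 counts (233-fold lower, interval 64.1 to 1931), whereas ERICH3, CDH10 and SLC7A3 had none in GFI1-KO and were at least 38.4-fold, 46.5-fold and 33.4-fold lower against a floor of 3 counts per library. All 5 genes entered the test through their WT libraries. The prior count limits how low a gene with few or no GFI1-KO counts can lie, so the order of likeness also depends on the WT count. Fitted log2 fold changes were -7.61 for PARVA, -9.77 for ERICH3, -10.05 for CDH10, -6.23 for CLVS2 and -9.57 for SLC7A3, beside -6.28 for ELAVL4. The 5 genes lie on chromosomes 11, 1, 5, 6 and X in the order of their likeness.

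ELAVL2, which encodes HuB, had the highest level of the 10 genes per length. It spans 23690104 to 23826337 on the minus strand of chromosome 9 (7 exons). Its normalized counts were 11532, 11220 and 11299 in WT and 9132, 9082 and 9271 in GFI1-KO. The groups did not overlap, and the GFI1-KO mean was 19.3% lower, with a log2 fold change of -0.31 (SE 0.031) without offsets and 0.29 with GC and length offsets. The longest ELAVL2 transcript has a GC content of 36.3%, lower than in all but 4.30% of tested genes. Whether ELAVL2 was lower or higher in GFI1-KO thus depended on the scaling.

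ELAVL3 (HuC), a gene of mature neurons, lies on chromosome 19 (11451326–11481046, minus strand, 7 exons). Normalized counts of 1288, 1306 and 1148 in WT stood against 1013, 988 and 1006 in GFI1-KO. All 3 GFI1-KO values were below the lowest WT value, and the spread within GFI1-KO was small (SD 12.7, against 86.4 in WT). The mean was 19.6% lower, a log2 fold change of -0.32 (SE 0.052), which became -0.76 with GC and length offsets. The longest ELAVL3 transcript has a GC content of 58.1%, so ELAVL2 and ELAVL3, alike without offsets, moved apart with them. Of the 50-base words of ELAVL3, 4.31% also occur in 1 other gene, and a read-through gene that overlaps it on the same strand was at 0 counts in all libraries.

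ELAVL1 encodes HuR, the ELAVL protein made in most cell types, and lies on chromosome 19 from 7958579 to 8005659 (minus strand, 6 exons). Normalized counts were 3226, 3212 and 3476 in WT and 2378, 2382 and 2303 in GFI1-KO. The groups were well apart, at 3305 ± 148 and 2355 ± 44.8 (SD, n = 3 libraries each), a mean that was 28.8% lower. The log2 fold change was -0.49 (SE 0.038), and -0.34 with GC and length offsets. Words shared with other genes made up 9% of the 50-base words of ELAVL1, the largest share among the 10 genes, and none of the 10 shared a word with another of them.

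Compared per length, the ELAVL genes summed to 182 ± 1.96 FPKM in WT and 140.0 ± 0.925 FPKM in GFI1-KO (SD, n = 3 libraries each), sums computed without GC and length offsets, with which their main member, ELAVL2, changes direction. ELAVL2 made up 73.5% of the WT sum and 76.4% of the GFI1-KO sum. ELAVL1 followed with 15.8% and 14.5%, and ELAVL3 with 8.73% and 9.03%. ELAVL4 was 1.92% of the WT sum and 0.0312% of the GFI1-KO sum. On this scale, without offsets, the ELAVL4 mean dropped by 3.46 FPKM and the ELAVL1 mean dropped by 8.52 FPKM. The ELAVL mRNA pool of both groups was mostly ELAVL2.

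**Figure D2:**
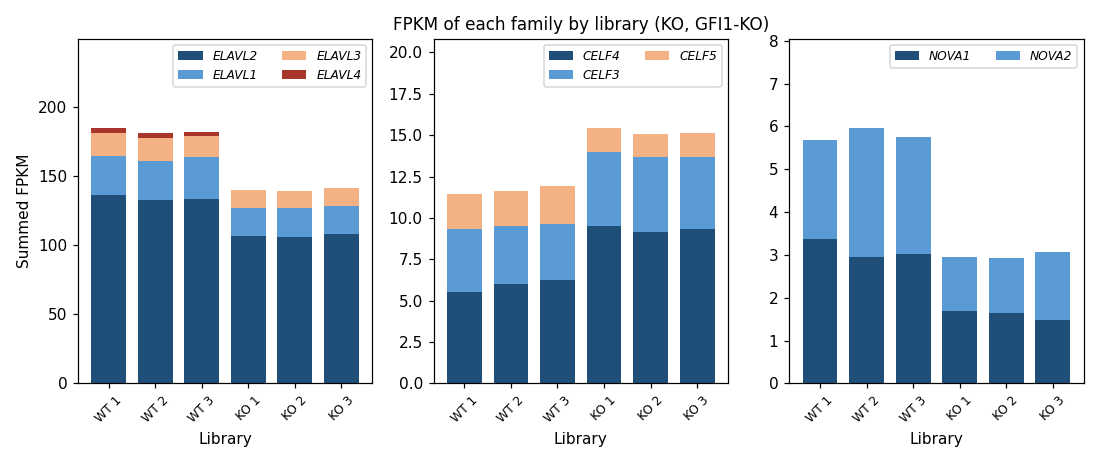
Summed FPKM per library (linear axes from 0, without GC and length offsets), split by gene, for the ELAVL genes, CELF3 to CELF5 and the NOVA genes. ELAVL2 fills most of each ELAVL bar, the ELAVL4 segment is visible in the WT libraries only, the NOVA bars are shorter in GFI1-KO (2.98 against 5.80 FPKM on average) and the CELF bars are taller (15.2 against 11.7 FPKM), with a larger CELF4 segment.

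NOVA1 and NOVA2 encode the Nova splicing factors, which bind YCAY clusters and set the inclusion of many neuronal exons. NOVA1 lies on chromosome 14 (26443093–26597754, minus strand, 5 exons) and had normalized counts of 557, 489 and 500 in WT and 283, 274 and 248 in GFI1-KO. NOVA2 lies on chromosome 19 (45933734–45973546, minus strand, 4 exons) and had 333, 430 and 392 in WT and 184, 188 and 228 in GFI1-KO. Neither gene had overlapping groups, and the means were lower by nearly the same part, 47.9% for NOVA1 and 48.1% for NOVA2. Their log2 fold changes were the same to 2 decimals, -0.94 (SE 0.079) for NOVA1 and -0.94 (SE 0.10) for NOVA2. With GC and length offsets they parted, to -0.42 for NOVA1, whose longest transcript has 39.3% GC, and to -1.35 for NOVA2, with 58.2% GC. Per length, the NOVA genes summed to 5.80 FPKM in WT and 2.98 FPKM in GFI1-KO, with NOVA1 at 53.7% and 53.8% of the sums.

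CELF4 had the highest log2 fold change of the 10 genes. It regulates synaptic mRNAs in excitatory neurons and lies on chromosome 18 (37243047–37566037, minus strand, 13 exons). Normalized counts were 594, 645 and 673 in WT and 1039, 993 and 1015 in GFI1-KO. The lowest GFI1-KO value was well above the highest WT value, and the mean was 59.4% higher. The log2 fold change was 0.67 (SE 0.057), and 0.66 with GC and length offsets, which left it the least moved by them of the genes that differed.

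CELF3, on chromosome 1 (151702404–151716814, minus strand, 13 exons), had 277, 259 and 246 normalized counts in WT and 328, 337 and 320 in GFI1-KO. Here too the groups did not overlap, and the mean was 26.0% higher, with a log2 fold change of 0.33 (SE 0.084). With GC and length offsets the value was 0.07, no longer past the threshold of the test. The gene RIIAD1 overlaps CELF3 on the other strand and had 5 to 16 counts per library, against 234 to 356 for CELF3.

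CELF5, also of the brain-enriched branch, was lower instead. It lies on chromosome 19 (3224703–3297076, plus strand, 13 exons) and had normalized counts of 212, 208 and 232 in WT and 147, 139 and 146 in GFI1-KO. The groups were apart, with a mean 33.8% lower and a log2 fold change of -0.59 (SE 0.11), or -1.03 with GC and length offsets. Summed over the brain-enriched CELF genes, FPKM was 11.7 ± 0.257 in WT and 15.2 ± 0.189 in GFI1-KO (SD, n = 3 libraries each). CELF4 made up 50.7% of this sum in WT and 61.4% in GFI1-KO, CELF5 18.7% and 9.43%, and CELF3 30.6% and 29.2%.

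RBFOX2, which binds GCAUG and controls exons in epithelial, muscle and neural cells, had the smallest log2 fold change of the 10 without GC and length offsets. It spans 35738736 to 36028425 on the minus strand of chromosome 22 (14 exons), with normalized counts of 5261, 5130 and 5298 in WT and 5252, 5367 and 5270 in GFI1-KO. The groups overlapped, and the log2 fold change was 0.02 (SE 0.032). Its sign changed to -0.024 with upper-quartile scaling and to -0.0027 without WT 2, and with GC and length offsets it was 0.09, past the threshold of the test. The coefficient of variation over libraries was 1.69% in WT and 1.17% in GFI1-KO.

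**Figure D3:**
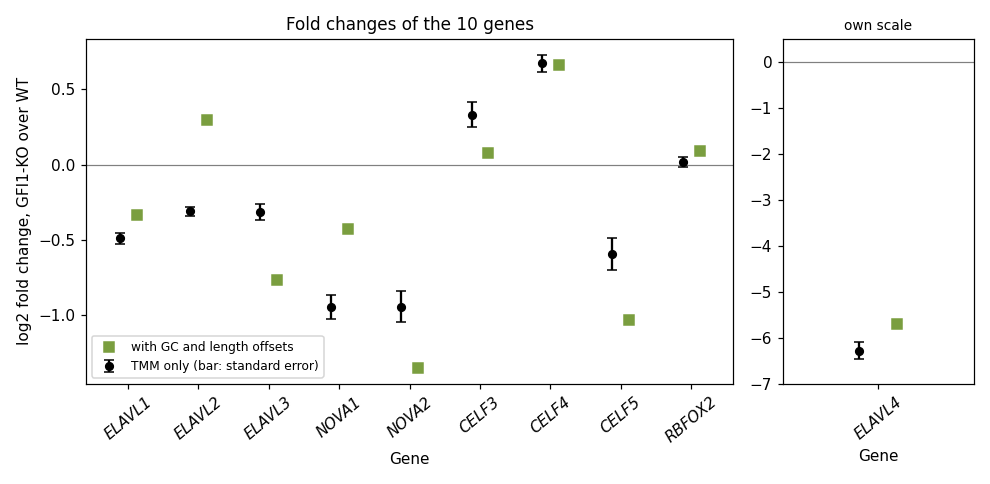
Log2 fold change of each gene, GFI1-KO over WT, fitted with TMM scaling only (black points, bars show the standard error) and with GC and length offsets (green squares), with ELAVL4 on its own axis. ELAVL2 lies at -0.31 without and 0.29 with offsets, and CELF4 lies at 0.67 and 0.66.

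Ordered by FPKM in WT, ELAVL2 (134) was followed by RBFOX2 (31.7), ELAVL1 (28.8), ELAVL3 (15.9) and CELF4 (5.92), and the ranges of neighbors in this order did not overlap. Below them came CELF3 (3.56), ELAVL4 (3.50), NOVA1 (3.11), NOVA2 (2.69) and CELF5 (2.19), each of which overlapped the next over the 3 libraries. In GFI1-KO the first 6 kept this order, at 107, 31.7, 20.3, 12.6, 9.33 and 4.44 FPKM. The last places were NOVA1 (1.60), CELF5 (1.43) and NOVA2 (1.38), of which CELF5 and NOVA2 overlapped, and ELAVL4 (0.0436) came last. The upper part of the order was thus the same in both groups, and ELAVL4 dropped from rank 7 to rank 10.

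Among the 10 genes, 4 lie on chromosome 19, and all of these (ELAVL1, ELAVL3, NOVA2 and CELF5) were lower in GFI1-KO, with and without GC and length offsets. The 1217 tested genes of chromosome 19 had a median log2 fold change of 0.37 without offsets, with 55.1% called higher and 18.7% lower, and a median of 0.04 with offsets. Of the 16 nearest tested protein-coding genes around these 4, 14 were called higher, 1 lower and 1 not called by edgeR, which became 4, 3 and 9 with offsets. All 4 neighbors of NOVA2 were called higher, with log2 fold changes from 0.52 to 0.91, and so were those of CELF5, from 0.71 to 1.24. With offsets, 1 of the 4 neighbors of NOVA2 was called higher, at log2 values from -0.03 to 0.25, and 2 of the 4 of CELF5, from -0.02 to 0.69. NOVA2 and CELF5 themselves lay at -0.94 and -0.59 without offsets and at -1.35 and -1.03 with them. CELF4 lay at 0.67 where the 256 tested genes of chromosome 18 had a median of -0.31, and with offsets at 0.66 where the median was -0.03. RBFOX2 lay at 0.02 where chromosome 22 had a median of 0.56, and with offsets at 0.09 where the median was 0.26. Over all 10 genes, 21 of the 40 neighbors were called higher, 10 lower and 9 not called, or 14 higher and 12 lower with offsets.

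The other CELF and RBFOX genes were mostly at low counts. CELF2, CELF6 and RBFOX1 had at most 12 counts in any library and were not tested. CELF1, the broadly expressed paralog, fell from 4104 ± 108 to 3547 ± 89.8 normalized counts (log2 fold change -0.21, edgeR adjusted p = 5.45e-06, and -0.10 with offsets). RBFOX3, which encodes the neuronal nuclear antigen NeuN, rose from 173 ± 23.8 to 274 ± 35.5 (0.67, edgeR adjusted p = 7.49e-06), but stood at 0.10 with GC and length offsets (adjusted p = 0.458).

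Other regulators of neuronal and alternative splicing were more often called lower, at 10 of the 14 tested (of 16 listed), with 3 called higher and a median log2 fold change of -0.30. With offsets the split was 6 higher and 5 lower around a median of -0.02. PTBP2, the neuronal polypyrimidine tract protein, fell from 700 to 338 normalized counts (log2 fold change -1.05, edgeR adjusted p = 1.0e-13), and its value with offsets was -0.34. SRRM3, a microexon splicing factor, rose from 832 to 1763 (1.08, edgeR adjusted p = 8.95e-17, and 0.36 with offsets), whereas its paralog SRRM4 fell from 593 to 460 (-0.36, edgeR adjusted p = 4.94e-05, and -0.47 with offsets). PTBP1, the repressor of neuronal exons in other cells, had a log2 fold change of 0.37 without offsets and -0.19 with them.

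Of 18 RNA-binding proteins of translation and mRNA localization, 16 were tested, with 3 higher and 12 lower (4 and 7 with offsets) and a median of -0.45 (-0.07 with offsets). IGF2BP2 (log2 fold change -0.89), the transport factor STAU2 (-0.76) and the neural progenitor protein MSI1 (-0.68) were among those that fell, and the polyadenylation factor CPEB1 rose by 0.81 (edgeR adjusted p between 4.08e-14 and 1.64e-07 over these genes). With offsets STAU2 stood at -0.12 and MSI1 at -1.25.

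The factors that promote decay of AU-rich mRNAs, whose binding elements overlap those of the ELAVL proteins, were called higher in 5 of 5 cases. Their median log2 fold change was 0.58. With offsets 4 of 5 were called higher, and the median of 0.84 was the value of HNRNPD, which stood at 0.20 without offsets. ZFP36L2 went from 0.36 to 0.05 with offsets (edgeR adjusted p = 0.621). ZFP36L1, named after its values were seen, had 2, 0 and 2 counts in WT and 45, 51 and 42 in GFI1-KO, and entered the test through the group in which it was high. ZFP36 (tristetraprolin) rose from 71.6 to 357 normalized counts (2.32, edgeR adjusted p = 6.34e-15) and KHSRP from 4100 to 6117 (0.58, edgeR adjusted p = 1.17e-14), the latter by 0.08 with offsets. Of 10 mRNAs known to be bound by ELAVL proteins, 5 were higher, 2 lower and 3 not called (3, 2 and 5 with offsets), with a median of 0.43 (0.19 with offsets). CDKN1A rose by 2.08 (edgeR adjusted p = 1.19e-18) and VEGFA by 0.88, while MYCN fell by 1.51 on the log2 scale (edgeR adjusted p of at most 4.9e-13 for each). GAP43, the best known HuD target, had 892 and 914 normalized counts, a log2 fold change of 0.04 (edgeR adjusted p = 0.575) that was 0.0038 with offsets.

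Of 7 regulators of neural transcription, all tested, 6 were lower and 1 was higher (5 and 1 with offsets), with a median of -0.40. POU3F2 fell from 257 to 30.6 normalized counts (log2 fold change -3.06, edgeR adjusted p = 2.67e-15), and MYT1L by 0.54 (edgeR adjusted p = 6.55e-04, and by 0.36 with offsets). REST, the repressor of neuronal genes in other cells, rose from 186 to 269 (0.53, edgeR adjusted p = 4.68e-05, and 1.03 with offsets).

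Markers of cell types differed between the groups as well, and their part in the differences of the 10 genes was not tested. All 8 neuroendocrine markers were called higher without offsets (median log2 fold change 0.65), among them SYP (1.21) and SCG2 (1.17). With GC and length offsets the median of all 8 was 0.24. Then 4 were higher, among them SYP (1.07) and SCG2 (1.40), UCHL1 (-0.44), ENO2 (-0.16) and DLL3 (-0.56) were lower, and CHGA lay at -0.02. Neuronal markers, at 255–267 CPM in sum in WT and 123–128 in GFI1-KO, were lower in 5 of 6 cases without offsets and in 4 with them. MAP2 lay at -2.84 (-2.47 with offsets), STMN2 at -2.37 (-2.12) and SNAP25 at -0.67 (-0.27). DCX lay at -6.19 (-5.85 with offsets), with 50, 54 and 52 counts in WT and 0, 0 and 2 in GFI1-KO, and entered the test through WT. TUBB3 was higher at 0.29 without offsets and lay at -0.04 with them, and SYT1 moved from -0.54 to 0.00. Epithelial markers summed to 205–217 and 239–263 CPM, mostly from KRT8 and KRT18. Of these 4 markers 1 was higher and 2 lower (median log2 fold change -1.12), or 1 and 3 with offsets (median -1.26). EPCAM lay at -2.23 and CDH1 at -2.31, both at low counts, KRT8 at 0.45 (0.13 with offsets) and KRT18 at -0.01 (-0.42). Fibroblast markers summed to 190–196 and 125–130 CPM (3 of 3 tested lower, DCN at 0 in all libraries), and endothelial markers to 27.0–30.4 and 13.2–14.9 CPM (1 of 2 tested lower). Leukocyte markers were at or near 0, with sums of at most 0.336 CPM, no gene tested and CD3E at 0 in all libraries.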

How the data were processed

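For 6 H1155 libraries, the authors deposited unnormalized counts per gene, together with a gene length, position and symbol from their annotation. Per the paper's methods, poly-T–selected RNA was sequenced on a NovaSeq system, aligned to GRCh38/hg38 with Hisat2 and counted with featureCounts, whereas the submitters' processing notes list Bowtie2 and HTSeq for hg38. The annotation, the strand setting and the rule for reads with several matches are not given in the sources used here, so reads of overlapping or antisense genes may be shared.

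Groups came from the labels. The counts were tested with edgeR 4.0.16 (TMM, filterByExpr, quasi-likelihood F test, Benjamini–Hochberg adjustment over 17514 genes, threshold 0.05) in R 4.3.3, where the paper used DESeq2. SE was derived from the log2 fold change and the F statistic, as the absolute value over the root of F. Normalized counts are counts over the TMM effective library size times its mean, and FPKM uses the deposited gene length and the library total. A count of 3, the floor, corresponds to 0.170–0.202 CPM. Offsets for GC content and gene length came from natural splines with 5 degrees of freedom, fitted per library, with the GC content of the longest GENCODE transcript (99.4% of tested genes). Alternatives were DESeq2 1.42.0, limma-voom (limma 3.58.1), upper-quartile or median-of-ratios factors, no factors, no low-count filter, at least 10 counts in every library, a threshold of 0.01, the replicate number as a block, GC and length offsets with and without the block, and each library left out. The steps were also run on simulated data in which only a small part of the genes changed, unlike here, and nothing about these libraries is concluded from that run.

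The 10 genes and the further lists were chosen with earlier results of these data known. Of each list at most 4 genes are named, those with the largest changes among genes past the threshold with a mean of at least 100 normalized counts. REST, PTBP1, PTBP2 and SRRM4 are named whatever their values. Of the genes this rule names, 2 are not reported here. GAP43, ZFP36L1 and the marker genes were named after their values were seen. Neighbors are the 2 nearest tested protein-coding genes on each side, named for members with an absolute log2 fold change of at least 1. Figures and sequence tables were made in Python 3.11.15 (matplotlib 3.10.9, numpy 2.4.6, pandas 2.3.3).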

Additional observations from a re-analysis of the deposited data

How the results depend on the processing

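Of the log2 fold changes of the 10 genes, those of ELAVL2 and RBFOX2 changed sign under an alternative. ELAVL2 was 0.29 with GC and length offsets, and 0.29 with these and the replicate block. RBFOX2 was -0.024 with upper-quartile factors, and its values without 1 library ran from -0.0027 to 0.028. CELF3 no longer passed with these offsets, and RBFOX2 did (0.09). ELAVL4 was left out by the filter of at least 10 counts in every library, and ran from -6.68 to -6.11 with 1 library left out. The count of the other CELF and RBFOX genes called fell from 2 to 1 with the offsets, and was 1 with offsets and block. It was 3 of 5 (1 higher, 2 lower) without the low-count filter, where genes of very low counts are tested too. The difference in GFI1 did not pass with DESeq2 (0.31), upper-quartile factors (0.27), a threshold of 0.01 (0.31), GC and length offsets (0.17) or these with the block (0.18), and ran from 0.21 to 0.43 with 1 library left out. The causes of these changes were not tested. The total number called in each other list stayed within 1.5 times its value under all alternatives run, but its split by direction did not with GC and length offsets, which turned 3 higher and 10 lower splicing regulators into 6 and 5, and 3 and 12 translation and localization genes into 4 and 7.

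Replicate numbers did not pair the libraries: deviations from the group means correlated at -0.0036 to 0.024 between same-numbered libraries and at -0.052 to 0.043 between others. With the number as a block, 12573 genes were called against 12680 without it, 9 of the 10 genes remained called, and ELAVL4 stood at -6.28.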
